A study of Homo sapiens with 8 samples.

Results

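The cytosolic ribosome is built from ribosomal RNA and a fixed set of ribosomal proteins, named RPS when they sit in the small subunit and RPL when they sit in the large subunit. The genes that encode them lie scattered over the chromosomes, are transcribed at high levels in dividing cells, and often start at a cytosine followed by a run of pyrimidines, the 5′ terminal oligopyrimidine (TOP) tract, through which translation of their mRNAs follows the mTOR pathway. Their promoters are known as compact, housekeeping promoters that stay open in most cell types.

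The ribosomal protein genes were taken from the GENCODE annotation of GRCh38 by symbol. These were the protein-coding genes on chromosomes 1 to 22 named RPL or RPS with a number and an optional A or L suffix, together with RPLP0, RPLP1, RPLP2 and RPSA, with the RPS6K kinases and pseudogenes left out. This gave 81 genes of 19111 protein-coding genes on these chromosomes, of which 73 were core genes (43 of the large and 30 of the small subunit) and 8 were paralogues with an L or L1 suffix. Chromatin accessibility was measured by ATAC-Seq, in which the Tn5 transposase cuts open DNA, in HEK293T, a cell line from human embryonic kidney. There were 4 stable lines with 2 libraries each, made with lentivirus, and each expressed another EZH2: the wild type (EZH2 WT), a single mutant (EZH2 Y641F, or in another line EZH2 A677G), or the double mutant EZH2 H689A/F667I. The EZH2 protein methylates lysine 27 of histone H3 as the catalytic subunit of Polycomb repressive complex 2 (PRC2). The study classes both single mutants as gain-of-function (GOF) and the double mutant as loss-of-function (LOF). All lines were selected with blasticidin, the study's methods describe no removal of the cells' own EZH2, and each line is 1 infected and selected population, so the mutation and the line cannot be told apart.

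Each library is a list of broad MACS2 peaks, and a promoter is called open here when a peak lies within 1 kb of any annotated transcript start of the gene. Where several peaks qualified, the one with the highest −log10 p was taken. The files give for each peak its fold enrichment (the ratio of signal to local background, averaged over the peak) and its −log10 p, and the width follows from its ends. The lists held between 26350 peaks (EZH2 Y641F replicate 1) and 64923 peaks (EZH2 WT replicate 1) on chromosomes 1 to 22 and X, and both EZH2 WT lists were longer than all 6 mutant lists. Read depth is not given in these lists, so −log10 p and width, which grow with depth, were compared between lines after each library was centred on the median of all promoters open in all 8 libraries. Of the developmental kidney, neuronal and mesenchymal marker genes listed for HEK293T, 8 of 8 were open in all 8 libraries, while 11 of 12 markers of other cell types were open in no library.

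Promoter sequences from RefSeq on GRCh38 were matched to 64 of the 81 genes. Those not matched included RPL23, RPL23A, RPL30, RPL37, RPL39L, RPL3L, RPL5, RPL7, RPL8, RPS15A, RPS2 and RPS20. The first set shows 120 bases before and 15 bases from the annotated start on, for the genes whose peaks were called different between lines (RPS3, RPL37A, RPS7, RPL31), for those with the weakest peaks (RPL38, RPL12) and for those closed in whole lines (RPL19, RPL17, RPS15). Capitals mark a pyrimidine tract of 5 or more bases that begins with C at the start, and the ETS-type core CGGAAG or its reverse complement CTTCCG.

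RPS3 (chr11:75399398-75399532, plus strand): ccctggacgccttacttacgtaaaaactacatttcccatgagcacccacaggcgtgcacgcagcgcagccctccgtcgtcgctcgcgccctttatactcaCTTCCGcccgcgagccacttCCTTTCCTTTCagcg
RPL37A (chr2:216498724-216498858, plus strand): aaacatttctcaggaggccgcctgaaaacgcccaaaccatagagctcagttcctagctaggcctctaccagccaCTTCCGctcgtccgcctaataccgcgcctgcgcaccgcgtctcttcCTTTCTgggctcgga
RPS7 (chr2:3575140-3575274, plus strand): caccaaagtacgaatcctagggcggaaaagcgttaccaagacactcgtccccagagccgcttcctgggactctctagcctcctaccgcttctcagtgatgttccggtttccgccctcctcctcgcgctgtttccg
RPL31 (chr2:101002169-101002303, plus strand): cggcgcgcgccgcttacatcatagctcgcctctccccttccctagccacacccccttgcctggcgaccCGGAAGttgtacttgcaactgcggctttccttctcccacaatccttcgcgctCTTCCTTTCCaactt
RPL38 (chr17:74203558-74203692, plus strand): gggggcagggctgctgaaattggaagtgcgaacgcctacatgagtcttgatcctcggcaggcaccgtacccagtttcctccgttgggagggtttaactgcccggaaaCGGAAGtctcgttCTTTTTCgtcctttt
RPL12 (chr9:127451392-127451526, minus strand): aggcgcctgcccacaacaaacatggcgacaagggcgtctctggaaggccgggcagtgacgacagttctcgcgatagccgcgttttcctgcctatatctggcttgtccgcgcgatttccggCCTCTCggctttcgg
RPL19 (chr17:39200163-39200297, plus strand): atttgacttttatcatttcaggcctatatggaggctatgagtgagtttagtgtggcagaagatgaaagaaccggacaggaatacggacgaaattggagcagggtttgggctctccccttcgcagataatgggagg
RPL17 (chr18:49492451-49492585, minus strand): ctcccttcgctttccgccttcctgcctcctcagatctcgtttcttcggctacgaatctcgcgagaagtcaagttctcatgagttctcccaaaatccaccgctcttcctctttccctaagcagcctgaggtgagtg
RPS15 (chr19:1438276-1438410, plus strand): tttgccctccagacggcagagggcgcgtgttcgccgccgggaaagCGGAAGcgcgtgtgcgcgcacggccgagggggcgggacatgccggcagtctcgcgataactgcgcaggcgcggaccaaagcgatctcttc

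RPS3, RPL37A, RPL31, RPL38 and RPL12 began with such a tract in these sequences. Of the promoters closed in both libraries of a line, RPL19, RPL17 and RPS15 were matched and had no tract at the RefSeq start. Among the printed stretches, the ETS-type core can be read from the capitals upstream of the start, and RPL19 held it only outside its printed stretch. The second set shows 10 bases before and 20 bases from the start on, for genes of well-known roles, for genes whose peak call depended on the start used, and for paralogues.

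RPSA (chr3:39406710-39406739, plus strand): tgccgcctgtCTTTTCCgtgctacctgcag
RPS6 (chr9:19380217-19380246, minus strand): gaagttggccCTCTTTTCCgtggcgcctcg
RPS14 (chr5:150449720-150449749, minus strand): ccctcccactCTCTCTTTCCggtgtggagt
RPS19 (chr19:41860245-41860274, plus strand): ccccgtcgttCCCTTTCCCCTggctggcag
RPLP0 (chr12:120201092-120201121, minus strand): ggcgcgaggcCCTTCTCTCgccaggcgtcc
RPLP1 (chr15:69452808-69452837, plus strand): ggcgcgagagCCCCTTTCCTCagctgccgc
RPL27A (chr11:8682782-8682811, plus strand): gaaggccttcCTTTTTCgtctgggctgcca
RPS18 (chr6:33272065-33272094, plus strand): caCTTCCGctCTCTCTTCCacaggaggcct
RPL7A (chr9:133348208-133348237, plus strand): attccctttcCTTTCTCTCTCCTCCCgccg
RPL22L1 (chr3:170870176-170870205, minus strand): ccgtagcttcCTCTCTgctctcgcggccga
RPS27L (chr15:63157458-63157487, minus strand): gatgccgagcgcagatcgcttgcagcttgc
RPL11 (chr1:23691769-23691798, plus strand): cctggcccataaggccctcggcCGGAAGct

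In this set RPL7A, a large-subunit protein gene that hosts snoRNA genes, had the longest run, 16 pyrimidines. The paralogue RPS27L had no tract, while the paralogue RPL22L1 had 6 pyrimidines. The RefSeq start of RPL11 lies 27 bases from the GENCODE canonical start, so its lack of a tract holds for that start only.

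Over all matched genes, a C at the start with at least 4 pyrimidines after it was found in 41 of 64 ribosomal protein promoters (64.1%), against 4.62% of 14616 RefSeq promoters of protein-coding genes. The RefSeq start lay within 5 bases of the GENCODE canonical start in 57 of the 64. Searched on both strands over 250 bases before and 50 after the start, the ETS-type core CGGAAG was in 60.9% against 26.1% of all promoters. The word AAGATGG, found in YY1 sites, was in 14.1% against 6.35%. A further searched word, a palindrome with CGCG at its centre, was in 4 promoters (6.25%) against 0.698%. The remaining 3 words stood near or below the share of all promoters. The GC box GGGCGG was in 53.1% against 59.6%, CCAAT in 34.4% against 36.3% and TATAAA in 10.9% against 9.72%. The median GC content was 59.7%, against 63.0% for all promoters.

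Ribosomal protein promoters were open in most libraries. The number open was 79 and 79 of 81 in EZH2 WT, 75 and 77 in EZH2 Y641F, 77 and 78 in EZH2 A677G, and 75 and 76 in EZH2 H689A/F667I. In all 8 libraries, 71 of 81 were open (87.7%), beside a background of 59.7% over all protein-coding genes. Another 2 were closed in all 8 (2.47%, background 21.7%) and 8 were open in some libraries only (9.88%, background 18.6%). With only the canonical start of each gene, 71 were again open in all 8, beside a background of 55.4%. With only peaks from a −log10 q of 5 on, 27 of 81 were open in all 8 (33.3%, background 23.7%).

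**Figure D1:**
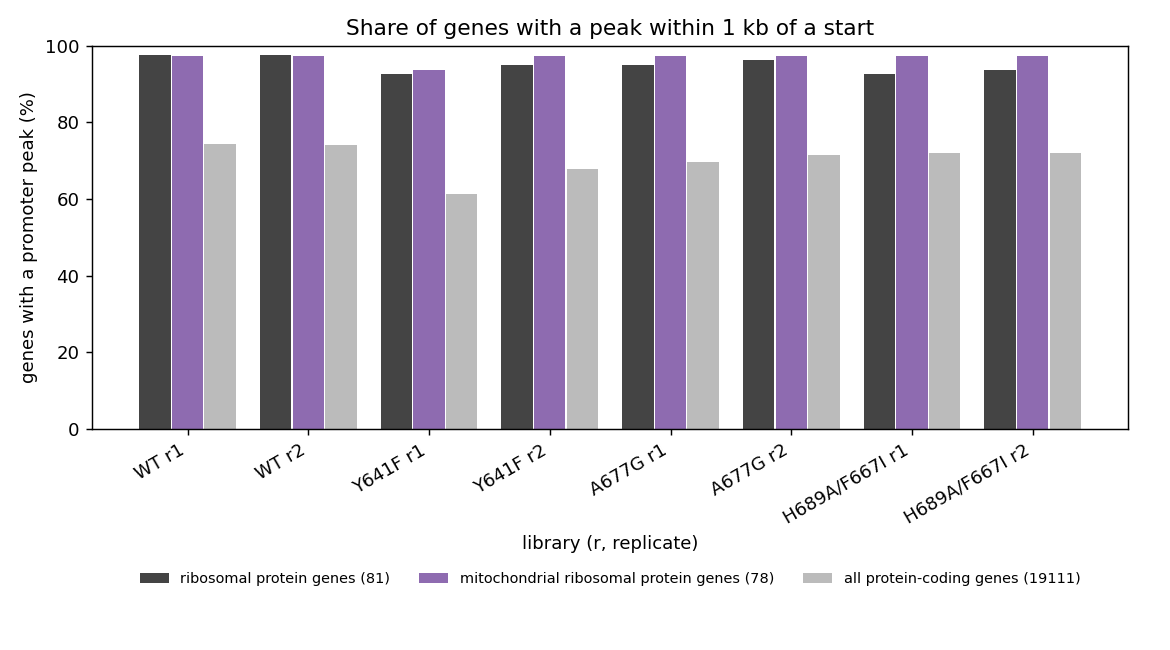
Bars give the percent of genes with a promoter peak in each library (r, replicate), for the 81 ribosomal protein genes, the 78 mitochondrial ribosomal protein genes and all 19111 protein-coding genes. The ribosomal protein genes stay between 92.6% and 97.5% in every library, while all genes range from 61.2% in EZH2 Y641F replicate 1 to 74.5% in EZH2 WT replicate 1.

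The mitochondrial ribosomal protein genes (MRPL and MRPS), which are a separate set of nuclear genes, were open in all 8 libraries for 73 of 78. Of 26 translation factor and other TOP mRNA genes, 24 were open in all 8, with EEF2 open in 4 and EEF1D in 5. The 4 ribosomal protein genes on chromosome X (RPS4X, RPL10, RPL36A and RPL39), which the selection left out, were open in all 8 libraries.

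The paralogues fell into both extremes. RPL10L, a retrogene known for its expression in testis, and RPL3L, known for its expression in striated muscle, had no promoter peak in any library. The other 6 paralogues (RPL22L1, RPL26L1, RPL36AL, RPL39L, RPL7L1 and RPS27L) were open in all 8. Their mean fold enrichment over the 8 libraries ran from 3.96 ± 0.41 (SD, n = 8) for RPL26L1 to 5.90 ± 0.45 for RPL39L. Their mean −log10 p ran from 10.7 ± 2.0 for RPS27L to 15.5 ± 1.4 for RPL36AL, which shares its promoter with the divergent gene MGAT2. In the mean percentile of −log10 p among the open promoters of a library these 6 lay between 60.7 and 85.4.

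The 8 genes open in only some libraries were all core genes, 4 of each subunit. RPL17, a large-subunit protein near the peptide exit tunnel, was open in both EZH2 WT and both EZH2 Y641F libraries and closed in both EZH2 A677G and both EZH2 H689A/F667I libraries. Its peaks covered the canonical start and were narrow, 216 and 293 bp in EZH2 WT and 297 and 298 bp in EZH2 Y641F. Its −log10 p was 4.37 and 6.90 in EZH2 WT and 9.18 and 6.46 in EZH2 Y641F, so in EZH2 WT it ranked at the 3.70 and 17.6 percentile of open promoters. In EZH2 Y641F it ranked at the 69.1 and 28.4 percentile, above both EZH2 WT libraries.

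RPL19, a large-subunit protein, was open in 6 libraries and closed in both EZH2 H689A/F667I libraries. Its −log10 p was 3.81 and 4.34 in EZH2 WT, 4.46 and 3.86 in EZH2 Y641F, and 4.42 and 5.46 in EZH2 A677G. These values were close to each other and low, with a mean percentile of 6.12 among open promoters, the lowest of the core genes.

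RPS15, a small-subunit protein, was closed in both EZH2 Y641F libraries. Its −log10 p was 10.6 and 10.8 in EZH2 WT, 7.99 and 8.48 in EZH2 A677G, and 9.20 and 9.20 in EZH2 H689A/F667I, between the 43.7 and 51.1 percentile of open promoters. It stood near the middle of the promoters wherever it was open, unlike RPL19.

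RPS2, a small-subunit protein near the mRNA entry site, was closed in both EZH2 Y641F libraries and in the first library of EZH2 A677G and of EZH2 H689A/F667I. In EZH2 WT its peaks were 263 and 250 bp wide at the canonical start (the second ended 3 bp from it), with −log10 p of 10.0 and 9.29. The peaks assigned to it in EZH2 A677G replicate 2 and EZH2 H689A/F667I replicate 2 lay 2377 and 2247 bp downstream of the canonical start, at another annotated transcript start, and both were within 1 kb of the canonical start of the neighbouring gene NDUFB10. With the canonical start only, RPS2 was open in both EZH2 WT libraries and closed in all 6 mutant libraries.

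Of the other 4, RPL13 and RPS16 were closed only in EZH2 Y641F replicate 1, the library with the fewest peaks. RPL38, a large-subunit protein known for its part in the translation of Hox mRNAs, was closed only in EZH2 H689A/F667I replicate 1, with −log10 p between 3.56 and 6.39 elsewhere. RPS27 was closed only in EZH2 H689A/F667I replicate 2 and had −log10 p between 4.26 and 9.09 elsewhere. RPL13 and RPS16 had −log10 p between 6.68 and 14.9 and between 4.57 and 10.3 where open.

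Counted by line, 2 of the 79 genes open in both EZH2 WT libraries were closed in both EZH2 Y641F libraries (2.53%, background 6.72%), namely RPS15 and RPS2. In EZH2 A677G it was 1 of 79 (1.27%, background 2.22%), RPL17, and in EZH2 H689A/F667I 2 of 79 (2.53%, background 1.5%), RPL17 and RPL19. With the canonical start only, RPS2 joined the latter pair of lines, giving 2 of 79 (2.53%, background 2.44%) and 3 of 79 (3.8%, background 1.7%), and EZH2 Y641F kept 2 of 79 (background 7.27%). Closed in at least 1 library of the line were 4 of 79 in EZH2 Y641F (background 17.1%), 2 in EZH2 A677G (background 6.37%) and 5 in EZH2 H689A/F667I (background 4.52%). Of the 2 genes closed in both EZH2 WT libraries, 0 were open in both libraries of a mutant line (backgrounds 0.24% in EZH2 Y641F, 0.327% in EZH2 A677G and 0.632% in EZH2 H689A/F667I). An exact permutation test of 2 libraries against 2 cannot pass a threshold of 0.05, so these counts carry no test.

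Short repeats that could limit unique alignment were measured as the share of 32-base words within 500 bp of the canonical start that occur elsewhere in the genome. The median over the 81 genes was 3.0%. The share was 15.8% for RPS27, 12.8% for RPS2, 5.69% for RPL13, 3.3% for RPS15 and RPS16, 0.2% for RPL19 and 0.0% for RPL17 and RPL38. The highest was 38.2% for RPS29, which was open in all 8 libraries, and the part of repeats in the closed calls was not tested.

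By their medians, ribosomal protein promoters lay below the middle of open promoters in fold enrichment in every library except EZH2 Y641F replicate 1. In −log10 p they lay somewhat above the middle in every library. Their median fold enrichment was between 3.81 and 4.04 in the 8 libraries, against 4.00 to 4.24 for all open promoters, and their median percentile within a library was between 34.9 and 51.5. Their median −log10 p was 12.8 and 11.8 in EZH2 WT, 7.83 and 9.02 in EZH2 Y641F, 8.80 and 9.53 in EZH2 A677G, and 10.5 and 10.4 in EZH2 H689A/F667I. All promoters followed the same order of lines, with medians of 11.5 and 11.2 in EZH2 WT and 7.42 and 8.36 in EZH2 Y641F. The median percentile of the ribosomal protein promoters, paralogues included, stayed between 53.3 and 61.3. For the 73 core genes alone it was between 49.5 and 58.5. It was between 55.8 and 67.8 for the mitochondrial ribosomal protein genes and between 58.6 and 73.5 for the translation factor and other TOP genes.

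The peaks were narrow. Their median width was 973 and 936 bp in EZH2 WT, 668 and 745 bp in EZH2 Y641F, 704 and 713.5 bp in EZH2 A677G, and 737 and 780 bp in EZH2 H689A/F667I. All open promoters had medians of 1127 and 1116 bp in EZH2 WT and between 722 and 959 bp in the mutant lines. In every library the median ribosomal protein promoter was thus narrower than the median promoter, at a percentile between 30.4 and 44.0. The mitochondrial ribosomal protein genes also lay below the median promoter in every library, at a percentile between 39.4 and 48.2. The translation factor and other TOP genes lay between 46.3 and 73.6. These are descriptions of sets beside all promoters and were not tested.

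**Figure D2:**
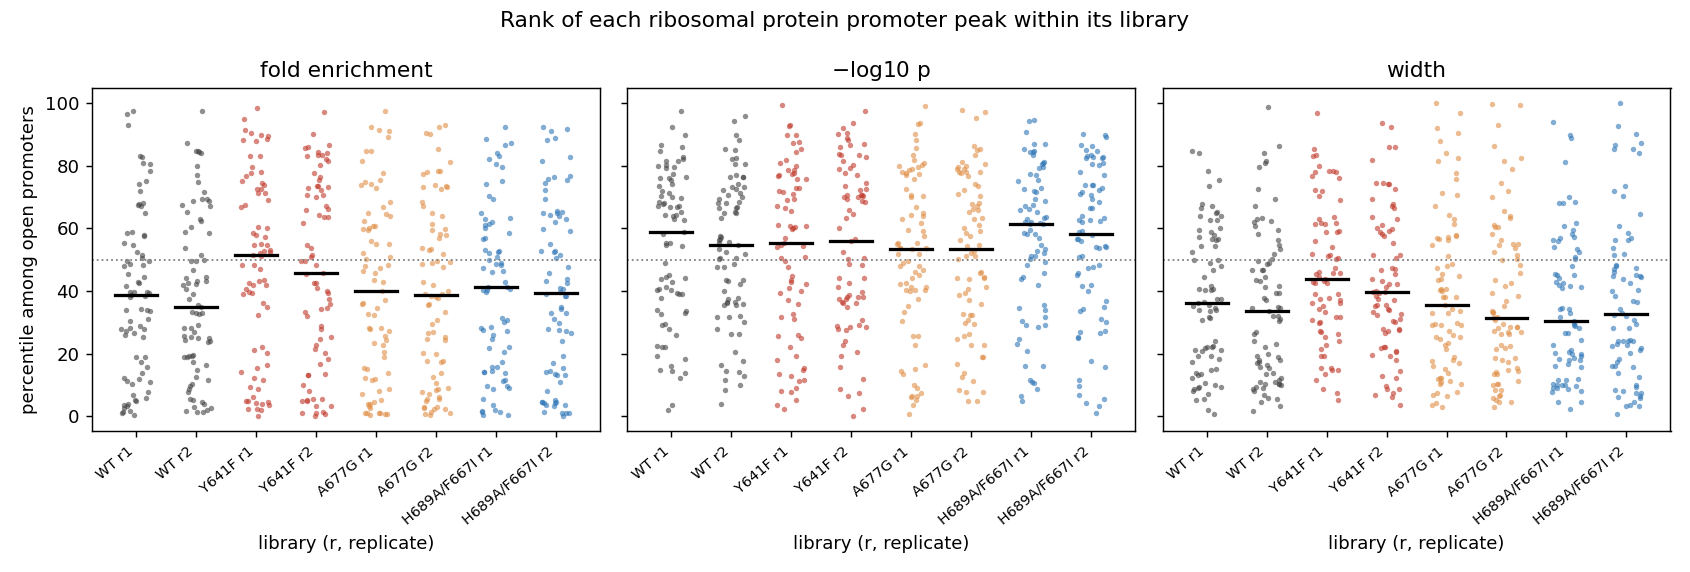
Each point is a ribosomal protein promoter, placed at the percentile of its peak among all open promoters of the same library (r, replicate), for fold enrichment, −log10 p and width, with the median as a bar and the 50th percentile dotted. Median width percentiles lie between 30.4 and 44.0 in all libraries, and median −log10 p percentiles between 53.3 and 61.3.

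The order of the 71 promoters open in all 8 libraries was similar between libraries. Spearman's rho of fold enrichment was between 0.853 and 0.897 within a line and between 0.547 and 0.826 across lines. For −log10 p it was between 0.682 and 0.828 within and between 0.462 and 0.793 across lines, and for width between 0.608 and 0.782 within and between 0.518 and 0.771 across. The points are 71 genes that share the libraries, and rho is given as a description. After centring, the median absolute log2 difference between the 2 libraries of a line was 0.0672 to 0.122 for fold enrichment, 0.18 to 0.231 for −log10 p and 0.152 to 0.299 for width.

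By the mean percentile of −log10 p among all peaks of a library, the highest core genes included RPL27A (97.1), RPL36 (95.6), RPL37 (95.3) and RPS26 (94.3). The strongest peaks of RPL27A and RPL36 lay 4857 bp or more and 9132 bp or more from their canonical starts in all 8 libraries, and those of RPL36 lay within 1 kb of the starts of HSD11B1L and MICOS13. At its own canonical start RPL36 had −log10 p between 5.04 and 12.5, and RPL27A between 5.89 and 13.8. RPL37 and RPS26 covered their canonical starts in all 8 libraries, with mean −log10 p of 15.3 ± 2.1 and 14.6 ± 2.8 (SD, n = 8). The widths of RPS26 hardly varied, 1038 ± 36.3 bp.

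The 5 lowest were RPL19 (24.3), RPL38 (30.9), RPL12 (38.7), RPL7A (40.5) and RPS28 (41.5). RPL12, which shares its start region with the divergent gene LRSAM1, had a mean −log10 p of 5.29 ± 0.97, and RPS28, at the divergent gene NDUFA7, 5.71 ± 1.78. RPL7A, at the divergent gene MED22, combined a mean −log10 p of 5.47 ± 1.10 with a wide peak, 1292 ± 445 bp. Its peak reached 1341 to 1574 bp upstream of the start in 6 libraries, and in EZH2 A677G replicate 2 the strongest peak was a 393 bp one that ended 978 bp upstream.

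The widest core peaks were those of RPL7 (1904 ± 416 bp), RPS2 (1484 ± 1475 bp), RPL9 (1367 ± 179 bp), RPL7A and RPS12 (1224 ± 277 bp). RPL7 shares its start region with the divergent gene RDH10 and RPL9 with LIAS. The mean of RPS2 joined 2 narrow EZH2 WT peaks with the 2206 and 3215 bp peaks downstream. The narrowest were RPL17 (276 ± 40.1 bp, n = 4), RPL13 (338 ± 94.0 bp, n = 7), RPL14 (339 ± 67.8 bp), RPL29 (343 ± 101 bp) and RPL8 (376 ± 181 bp). Of these, RPL13 and RPL14 reached the 60.0 and 60.4 percentile of −log10 p, so a narrow peak was not always a weak one.

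In 56 of the 81 genes the peak covered the canonical start in all 8 libraries. In these, the peak reached a median of 415 to 656 bp upstream and 238.5 to 368.5 bp downstream of the start, depending on the library, and 9 reached further downstream than upstream on average. The stretch shared by all 8 peaks had a median of 521 bp, from 100 bp at RPL12 to 1382 bp at RPL7.

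**Figure D3:**
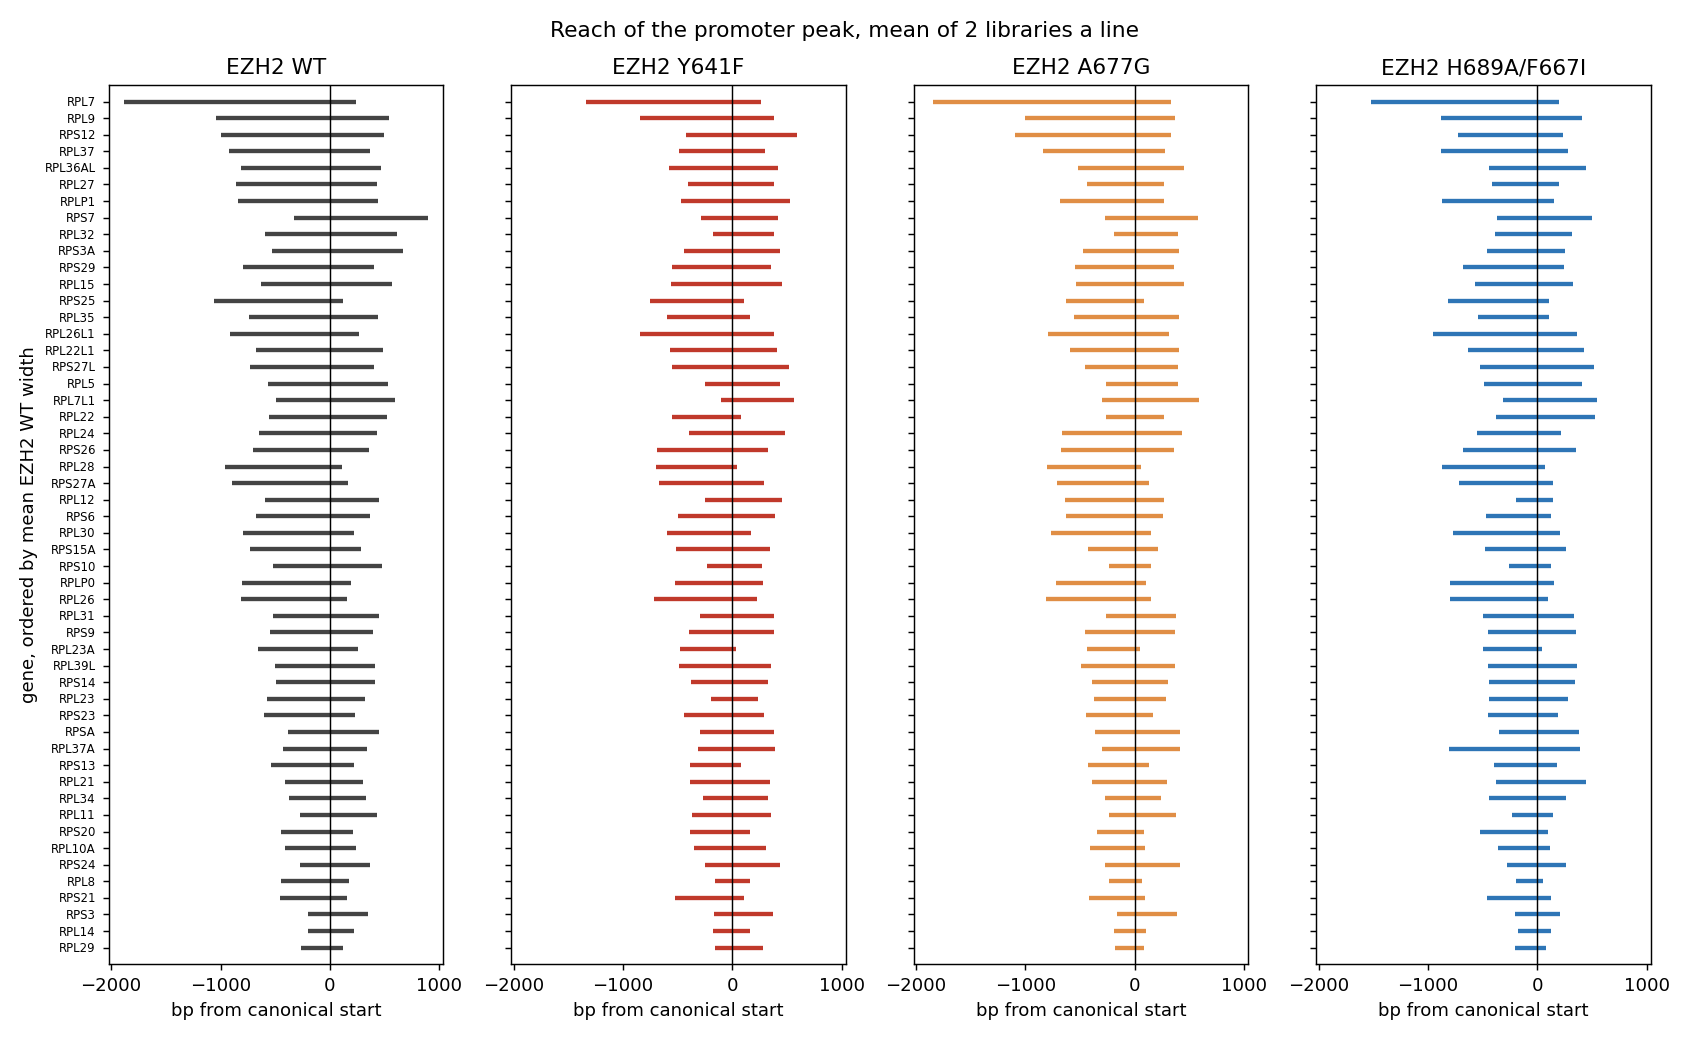
Horizontal lines give the stretch covered by the promoter peak around the canonical start (0, in bp, upstream negative) for 52 of the 56 genes whose peak covered it in all 8 libraries, as the mean of the 2 libraries of each line, ordered by width in EZH2 WT. RPL7 is the longest, and most lines reach further upstream than downstream, with library medians over the 56 of 415 to 656 bp against 238.5 to 368.5 bp.

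The core genes of both subunits were alike in width, with a median of 778.8 bp for 43 large-subunit genes and 789.9 bp for 30 small-subunit genes. Their median percentile of −log10 p was 48.2 and 57.2, and 39 of 43 and 26 of 30 were open in all 8. Those with a divergent protein-coding start within 1 kb (13) had a median width of 1001 bp against 748.6 bp for the other 60, and all 13 were open in all 8. Those that host snoRNA genes (26) had a median width of 749.3 bp against 801.8 bp for the other 47. Among the 58 core genes with a RefSeq promoter, 37 of 40 with a pyrimidine tract and 14 of 18 without were open in all 8. The lack of a tract holds for the RefSeq start only. That start lay 587 bases or more from the canonical start for RPL15, RPL6, RPS27A and RPS29, which are counted as without. The 5 core genes with TATAAA anywhere in the searched stretch had a median percentile of −log10 p of 22.8, against 53.5 for the other 53. This was the widest gap of the searched features. With and without AAGATGG it was 37.7 and 56.7, with and without CGGAAG 53.8 and 52.6, and with and without GGGCGG 54.4 and 51.6. For CCAAT it was 49.9 and 54.0, for the palindrome 55.5 and 53.4, and for the pyrimidine tract 53.2 and 56.4. None of these differences was tested.

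Genes of well-known roles lay between these ends. RPS6, a substrate of the S6 kinases, had −log10 p of 10.9 ± 2.9 and fold enrichment of 4.25 ± 0.45 (SD, n = 8). RPS14 and RPS19, known from the 5q− syndrome and Diamond-Blackfan anaemia, had −log10 p of 11.7 ± 2.5 and 11.6 ± 3.9. RPL5 and RPL11, which bind MDM2 when ribosome assembly fails, had 11.6 ± 2.4 and 10.8 ± 3.0. RPS27A, made as a fusion with ubiquitin, had 11.3 ± 2.9. RPSA, also known as a laminin receptor, had 13.2 ± 1.6. Of the stalk proteins, RPLP0 had 10.6 ± 2.2, RPLP1 11.1 ± 1.6 and RPLP2, whose peak covered the canonical start in 4 libraries, 7.47 ± 1.55. All 10 were open in all 8 libraries.

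The comparison of each mutant line with EZH2 WT asked whether the accessibility of these promoters differed with EZH2 activity. It was tested with limma on the log2 values of all 11404 promoters open in all 8 libraries, 71 of them ribosomal protein promoters, with Benjamini-Hochberg adjustment over all promoters. Only promoters open in every library enter, so the 10 others are covered by the counts above.

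In EZH2 Y641F, 4 of 71 ribosomal protein promoters had higher fold enrichment than in EZH2 WT (5.63%, background 1.62%) and 0 had lower (background 0.859%). They were RPS3, RPL27A, RPS18 and RPL37A. For −log10 p, 5 of 71 were higher (7.04%, background 1.97%) and 0 lower (background 0.754%). They were RPS3, RPL27A, RPL37A, RPS7 and RPL31. At an unadjusted p under 0.05, 22 were higher and 3 lower in fold enrichment (backgrounds 13.6% and 8.68%), and 18 and 7 in −log10 p (backgrounds 12.0% and 7.24%).

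RPS3, a small-subunit protein at the mRNA entry channel, had fold enrichment of 3.57 and 3.80 in EZH2 WT, 5.29 and 4.90 in EZH2 Y641F, 3.98 and 3.27 in EZH2 A677G, and 4.37 and 4.25 in EZH2 H689A/F667I. Both EZH2 Y641F libraries lay above all 6 others. The centred log2 difference from EZH2 WT was 0.57 ± 0.11 (SE, n = 2 per line, limma adjusted p = 0.0307). Its −log10 p was 8.17 and 9.35 in EZH2 WT, 12.4 and 13.3 in EZH2 Y641F, 8.82 and 7.14 in EZH2 A677G, and 10.5 and 10.1 in EZH2 H689A/F667I. The same order held, with a log2 difference of 1.18 ± 0.19 (adjusted p = 0.00878, limma), the smallest adjusted p of the set.

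RPL37A, a zinc-binding large-subunit protein, had fold enrichment of 4.33 and 4.23 in EZH2 WT, 5.27 and 5.29 in EZH2 Y641F, 4.82 and 4.76 in EZH2 A677G, and 4.09 and 3.80 in EZH2 H689A/F667I. All 4 GOF libraries lay above the other 4. The log2 difference of EZH2 Y641F from EZH2 WT was 0.41 ± 0.094 (limma adjusted p = 0.0472), and 0.82 ± 0.17 for −log10 p (limma adjusted p = 0.0235). In EZH2 A677G the difference in −log10 p was 0.51 ± 0.17 and did not pass (limma adjusted p = 0.23).

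RPS7, a small-subunit protein that also binds MDM2, had −log10 p of 10.7 and 11.3 in EZH2 WT, 10.4 and 13.8 in EZH2 Y641F, 9.22 and 13.1 in EZH2 A677G, and 14.7 and 14.8 in EZH2 H689A/F667I. The deposited values of EZH2 WT and EZH2 Y641F overlapped, and the difference appeared after centring, 0.75 ± 0.18 (limma adjusted p = 0.0354). In EZH2 H689A/F667I the difference was of like size, 0.74 ± 0.18, and did not pass in that comparison (limma adjusted p = 0.204).

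RPL31, a large-subunit protein near the exit tunnel, had −log10 p of 9.81 and 9.52 in EZH2 WT, 10.1 and 11.3 in EZH2 Y641F, 6.07 and 5.78 in EZH2 A677G, and 6.97 and 5.78 in EZH2 H689A/F667I. EZH2 Y641F lay highest and the other mutant lines lowest, with a centred log2 difference of 0.77 ± 0.19 from EZH2 WT (limma adjusted p = 0.0412).

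For RPL27A, a large-subunit protein, the call rested on the start used. The peak about 5 kb downstream had −log10 p of 15.2 and 17.7 in EZH2 WT, 22.2 and 20.2 in EZH2 Y641F, 24.3 and 22.7 in EZH2 A677G, and 13.1 and 15.5 in EZH2 H689A/F667I. Its log2 difference from EZH2 WT was 1.00 ± 0.18 in EZH2 Y641F (limma adjusted p = 0.0132) and 0.93 ± 0.18 in EZH2 A677G (limma adjusted p = 0.0428). At the canonical start the values were 13.8 and 13.4 in EZH2 WT, 5.89 and 7.73 in EZH2 Y641F, 10.4 and 8.92 in EZH2 A677G, and 8.75 and 12.2 in EZH2 H689A/F667I. There the difference of EZH2 Y641F was −0.38 ± 0.20 and did not pass (limma adjusted p = 0.303), so the call belongs to the downstream peak. Fold enrichment went the same way, 0.70 ± 0.14 for the downstream peak (limma adjusted p = 0.0327) and −0.16 ± 0.11 at the canonical start (limma adjusted p = 0.42).

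RPS18, a small-subunit protein of the head, was assigned peaks more than 4 kb downstream, near the start of B3GALT4, in EZH2 WT replicate 1 and EZH2 H689A/F667I replicate 2. With the canonical start only, its fold enrichment was 3.60 and 3.41 in EZH2 WT, 4.13 and 4.42 in EZH2 Y641F, 3.73 and 3.27 in EZH2 A677G, and 3.22 and 3.18 in EZH2 H689A/F667I. Both EZH2 Y641F libraries lay above all others, with a log2 difference of 0.38 ± 0.091 (limma adjusted p = 0.0467), against 0.46 ± 0.098 with the mixed peaks (limma adjusted p = 0.0388). Its −log10 p at the canonical start differed by 0.89 ± 0.18 (limma adjusted p = 0.0231).

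**Figure D4:**
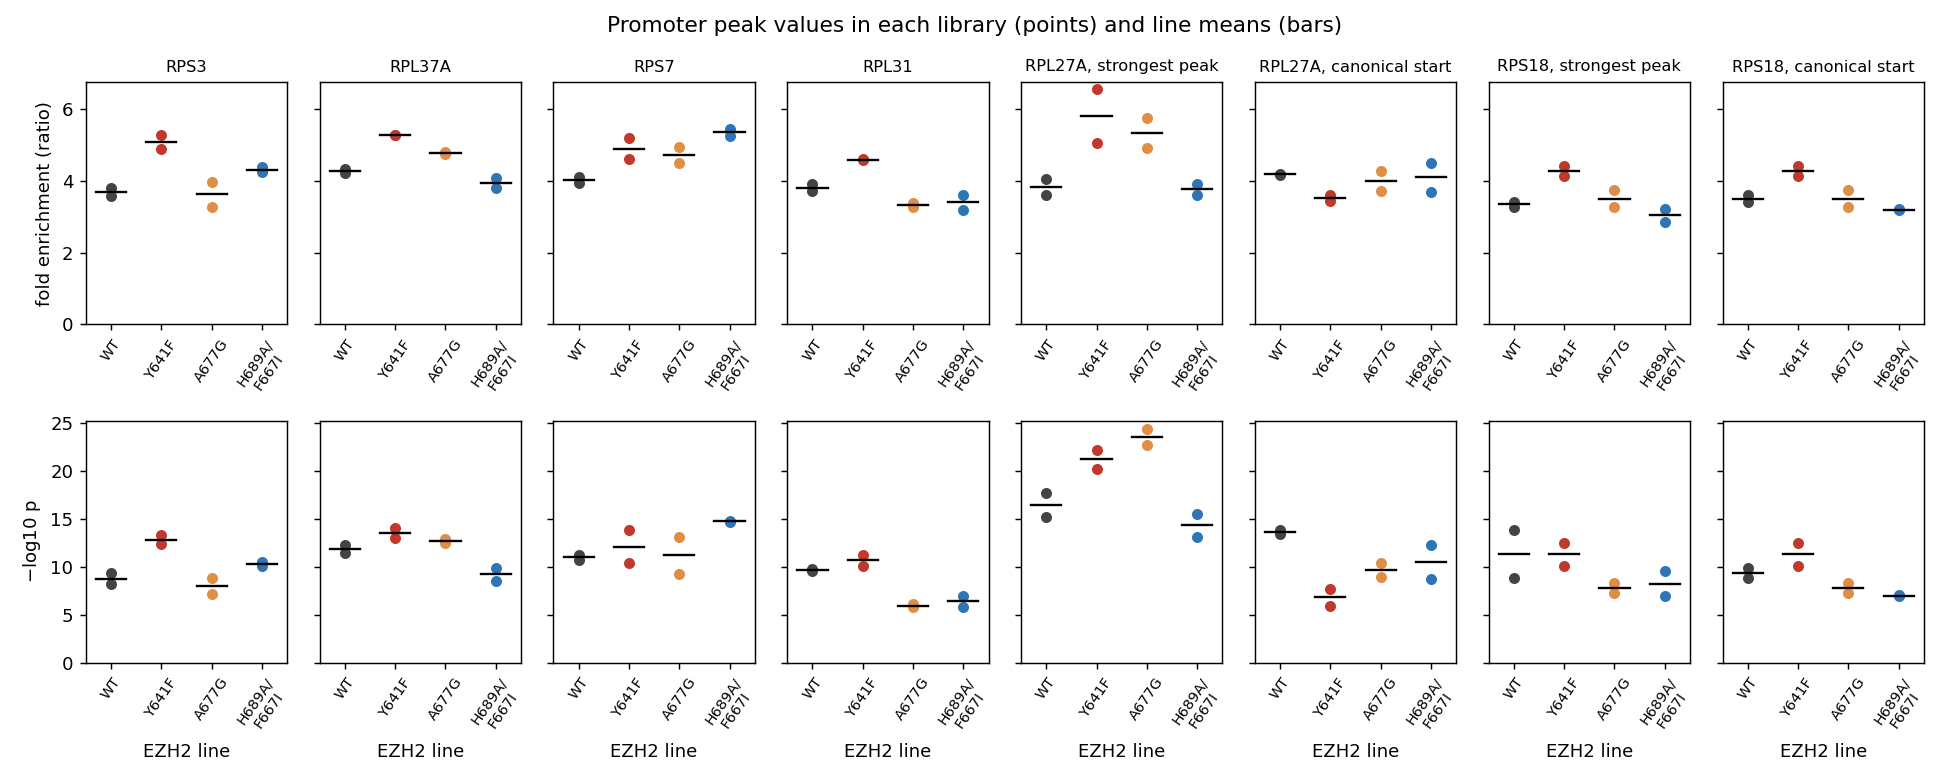
Points give the deposited fold enrichment (top) and −log10 p (bottom) of each library, by EZH2 line, for the promoters called in EZH2 Y641F or EZH2 A677G, with the mean of 2 libraries as a bar. RPS3 is highest in EZH2 Y641F in both rows, while RPL27A is high in EZH2 Y641F and EZH2 A677G at its strongest peak and lower in EZH2 Y641F than in EZH2 WT at its canonical start.

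With the canonical start only, 4 of 71 promoters were called for fold enrichment (RPS3, RPL37A, RPS18 and RPL36AL, background 1.96%) and 5 for −log10 p (RPS3, RPL37A, RPS18, RPS7 and RPL31, background 1.95%), all higher in EZH2 Y641F. RPS3, RPL37A, RPS7 and RPL31 kept their calls there for −log10 p. The calls depended on single libraries. Without EZH2 WT replicate 1, EZH2 WT replicate 2 or EZH2 Y641F replicate 1, 0 promoters were called in either measure, and for fold enrichment 0 were called without either EZH2 H689A/F667I library.

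The direction also rests on the centring, so a higher centred value is higher relative to the median promoter of the library. Centring removes any shift shared by most promoters, whether from read depth or from accessibility. These cannot be told apart here. The study reports that significantly depleted open regions lay mostly at promoters. Before centring, the median of all 11404 promoters was lower in EZH2 Y641F than in EZH2 WT by a log2 difference of −0.59 in −log10 p and −0.51 in width, and of −0.08 in fold enrichment. Without centring, 34 ribosomal protein promoters were called lower in −log10 p and 1, RPS3, higher (backgrounds 60.6% and 0.158%), and for fold enrichment RPS3 and RPL27A were higher and RPL21 lower (backgrounds 0.737% and 4.25%).

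Over the 71 promoters, the median centred log2 difference of EZH2 Y641F from EZH2 WT was 0.12 in fold enrichment (50 positive) and 0.11 in −log10 p (47 positive), beside medians of 0.02 and 0.04 over all promoters. Both EZH2 Y641F libraries lay above both EZH2 WT libraries in centred fold enrichment for 34 promoters (47.9%, background 30.9%) and below for 12 (16.9%, background 23.1%). In centred −log10 p the counts were 27 above (38%, background 28.6%) and 16 below (22.5%, background 21.9%), and in centred width 32 above (45.1%, background 32.3%) and 8 below (11.3%, background 19.5%). On the deposited values, without centring, the counts were 24 above and 19 below in fold enrichment (33.8% and 26.8%, backgrounds 15.4% and 40.9%). They were 4 and 49 in −log10 p (backgrounds 1.18% and 82.9%), and 1 and 43 in width (backgrounds 0.868% and 75.1%).

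**Figure D5:**
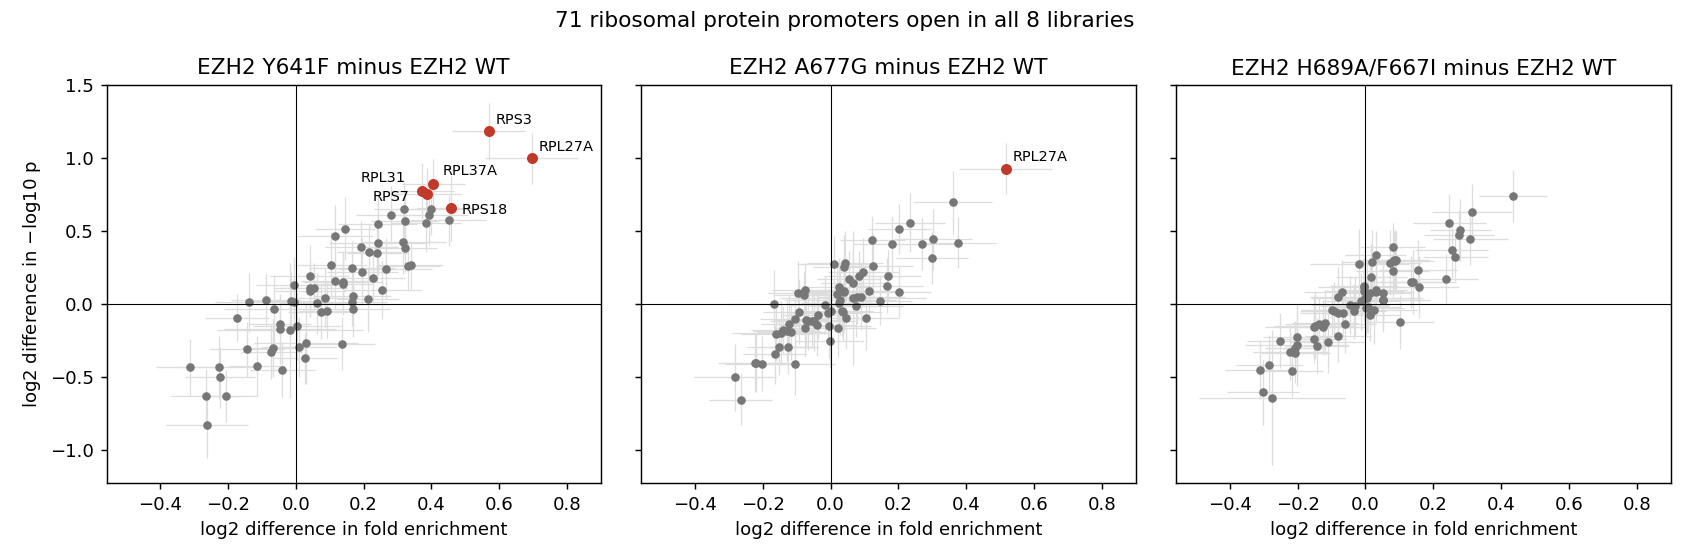
Each point is a ribosomal protein promoter, with the centred log2 difference from EZH2 WT in fold enrichment (x) and in −log10 p (y) and the SE as grey bars, 1 panel per mutant line, and promoters with an adjusted p under 0.05 in either measure in red. RPS3 lies at 0.57 and 1.18 in EZH2 Y641F, RPL27A is the only red point in EZH2 A677G, and there is none in EZH2 H689A/F667I.

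In EZH2 A677G, 1 of 71 promoters, RPL27A, was higher in −log10 p (1.41%, background 0.193%), 0 were lower (background 0.00877%), and with the canonical start only 0 were called (background 0.123%). For fold enrichment 0 were called, as over all promoters (background 0.0%), with 7 higher and 3 lower at an unadjusted p under 0.05 (backgrounds 8.54% and 5.67%). The smallest p values for fold enrichment were those of RPL27A, RPL36AL and RPL22, with log2 differences of 0.52 ± 0.14, 0.38 ± 0.11 and 0.36 ± 0.11 (limma adjusted p = 0.155, 0.178 and 0.201). The median difference of the 71 was 0.02 in fold enrichment and −0.00056 in −log10 p. Both EZH2 A677G libraries lay above both EZH2 WT libraries for 18 promoters in centred fold enrichment (background 26.7%), 16 in −log10 p (background 25.8%) and 19 in width (background 33.8%). They lay below for 17, 12 and 13 (backgrounds 22.7%, 20.9% and 17.5%). On the deposited values, 13 lay above and 19 below in fold enrichment (backgrounds 19.1% and 30.8%), 2 and 54 in −log10 p (backgrounds 2.49% and 71.6%), and 1 and 45 in width (backgrounds 1.84% and 61.8%).

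In EZH2 H689A/F667I, limma called 0 of 71 promoters in either measure (background 0.0%), with 9 higher and 6 lower in fold enrichment at an unadjusted p under 0.05 (backgrounds 5.02% and 3.56%) and 7 higher and 3 lower in −log10 p (backgrounds 6.04% and 2.93%). The smallest p values were those of RPS7, RPS12 and RPL21 for fold enrichment, with log2 differences of 0.43 ± 0.10, 0.28 ± 0.090 and −0.31 ± 0.10 (limma adjusted p = 0.218, 0.415 and 0.418). For −log10 p they were RPS7, RPS3A (0.63 ± 0.20, limma adjusted p = 0.336) and RPS3 (0.56 ± 0.19, limma adjusted p = 0.426). Both EZH2 H689A/F667I libraries lay above both EZH2 WT libraries for 18 promoters in centred fold enrichment (background 23.7%), 18 in −log10 p (background 23.9%) and 15 in width (21.1%, background 32.3%). They lay below for 17, 15 and 19 (backgrounds 20.6%, 20.2% and 14.8%), the last being 26.8% of the 71. On the deposited values, 14 lay above and 21 below in fold enrichment (backgrounds 19.2% and 25.2%), 4 and 40 in −log10 p (backgrounds 3.1% and 64.2%), and 1 and 43 in width (backgrounds 3.66% and 50.4%).

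For width, limma called 0 of 71 promoters in every line. The backgrounds were 0.0438% higher and 0.246% lower in EZH2 Y641F, 0.0% and 0.0438% in EZH2 A677G, and 0.0% and 0.0% in EZH2 H689A/F667I. At an unadjusted p under 0.05 there were 7 higher and 2 lower in EZH2 Y641F (backgrounds 11.7% and 7.7%), 1 and 3 in EZH2 A677G (backgrounds 4.43% and 5.53%), and 1 and 6 in EZH2 H689A/F667I (backgrounds 1.7% and 3.59%). On simulated data the test recovered no planted change in width of a log2 size of 0.5 or 1 in EZH2 Y641F. The lack of calls in width therefore does not show that widths were alike.

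The smallest p values for width in EZH2 Y641F were those of RPL36 (log2 difference −0.91 ± 0.23), RPL26 (0.52 ± 0.15) and RPL13A (−0.81 ± 0.25), with limma adjusted p of 0.177, 0.186 and 0.198. The RPL36 width is that of a peak 9132 bp or more from its canonical start in all 8 libraries. That peak lies near the starts of HSD11B1L and MICOS13. In EZH2 A677G the smallest p values included those of RPS10 (−0.96 ± 0.34) and RPL32 (−0.65 ± 0.26), with limma adjusted p of 0.493 and 0.497. In EZH2 H689A/F667I they were RPL37A (0.91 ± 0.23), RPL27 (−0.82 ± 0.21) and RPL12 (−1.51 ± 0.46), with limma adjusted p of 0.53, 0.535 and 0.687. RPL37A was 1167 and 1244 bp wide in EZH2 H689A/F667I, against 780 and 750 bp in EZH2 WT, 596 and 803 bp in EZH2 Y641F and 817 and 604 bp in EZH2 A677G, so both of its EZH2 H689A/F667I peaks were wider than all 6 others.

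Without a model, in centred width all 4 GOF libraries lay above all 4 EZH2 WT and EZH2 H689A/F667I libraries for 10 of 71 promoters (14.1%, background 8.09%), among them RPL15, RPL26, RPL39L, RPL9, RPS24, RPS26, RPS3 and RPSA. They lay below for 1, RPL22 (1.41%, background 2.48%). Before centring, the median width of all promoters lay below EZH2 WT by a log2 difference of −0.51 in EZH2 Y641F and −0.30 in EZH2 A677G. A higher centred width is therefore not necessarily a wider peak in bp. In centred fold enrichment the counts were 5 above (7.04%, background 5.34%) and 1 below (1.41%, background 3.24%), and in centred −log10 p 4 above (5.63%, background 4.13%) and 2 below (2.82%, background 2.76%). RPL37A, RPL8, RPS24 and RPL27A, the latter at its downstream peak, were above in both of these measures. The promoters named here were chosen after their values were seen.

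Of the other lists, 0 of 23 translation factor and TOP genes passed the test in any measure and line. Of 73 mitochondrial ribosomal protein genes, MRPS6 was higher in −log10 p in EZH2 Y641F (1.00, limma adjusted p = 0.0376), and 0 passed in the other measures and lines. The median −log10 p difference of EZH2 Y641F from EZH2 WT was −0.07 and 0.03 in these lists, beside 0.11 in the ribosomal protein genes. In fold enrichment it was 0.02 and 0.04, beside 0.12. In centred width it was 0.19 and −0.05, beside 0.21, so the translation factor and TOP genes lay close to the ribosomal protein genes there.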

How the data were processed

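ATAC-Seq peak lists of 8 libraries (4 lines, 2 replicates each, groups from the sample titles) were used. The authors trimmed reads with Trim Galore (0.6.5), aligned them to GRCh38/hg38 with BWA (0.7.17), removed duplicates and called broad peaks per library with MACS2 (2.2.7.1). The deposited fold enrichment is a ratio of signal to background, and the deposited −log10 p and −log10 q are means over the peak. The lowest −log10 q in each library was just above 1. Transposase shifting, removal of mitochondrial reads and read depth are not given in the sources used here. The score column was not used.

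Transcript starts came from GENCODE 44. Peaks within 1000 bp of a start were joined to genes. The log2 values of promoters open in all 8 libraries were median-centred per library and fitted over the 4 lines with limma (3.58.1, R 4.3.3, eBayes with trend). The fit was tested on simulated data with log2 changes of 0.5 or 1 planted in EZH2 Y641F. There it recovered no planted change in width and only the larger ones in −log10 p. The study's count-based test needs reads, which were not analysed here. Genes named in the text were those lacking a peak in a library, the extremes of −log10 p and of width, the paralogues, those with the smallest p per comparison and genes of well-known roles. The members and lists were chosen with earlier results of these data known. The methods state independent biological replicates from each line. The p-values therefore measure the spread between replicates within lines, estimated jointly over the 4 lines, and not the spread between separately made lines of the same EZH2. Some genes covered by the counts are not reported here by name or drawn singly.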

Additional observations from a re-analysis of the deposited data

Results flagged for a closer look

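The mutant lines differed from each other in −log10 p at ribosomal protein promoters that included RPL31, RPL22, RPL27A and RPL37A, each by a test of the difference itself (limma, adjusted over 11404 promoters). EZH2 Y641F lay above EZH2 A677G at RPL31 by a centred log2 difference of 1.07 and below it at RPL22 by −1.13, both with a limma adjusted p of 0.0483 (backgrounds 0.0526% higher and 0.114% lower). EZH2 Y641F lay above EZH2 H689A/F667I at RPL31 by 1.06, at RPL27A by 0.883 and at RPL37A by 0.862 (background 0.281% higher). RPL22 had −log10 p of 4.04 and 6.11 in EZH2 Y641F, 10.8 and 14.9 in EZH2 A677G, 9.29 and 11.6 in EZH2 WT, and 11.6 and 8.99 in EZH2 H689A/F667I. With the canonical start only, RPL31 and RPL37A kept the difference between EZH2 Y641F and EZH2 H689A/F667I (limma adjusted p of 0.019 and 0.0362), RPL27A became −0.313 (limma adjusted p = 0.49), and both differences from EZH2 A677G missed the threshold (limma adjusted p = 0.0526). Over the alternatives, RPL31 kept its difference from EZH2 H689A/F667I in 12 of 15 (limma adjusted p up to 0.163), and RPL27A and RPL37A theirs in 7 of 16 each (up to 0.508 and 0.194). Against EZH2 A677G, RPL31 and RPL22 kept theirs in 3 of 15 each (up to 0.296 and 0.318).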

How the results depend on the processing

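Reads were not analysed here, so differences in depth were addressed only on the peak lists. This was done by centring on all promoters and by alternatives such as an equal number of peaks. Centring would also remove a real change shared by most promoters. Having 2 libraries per line limits every test. Of 205 values recomputed for the counts under the alternatives, 168 stayed within 1.5 times the reported count and 37 did not, and the cause was not tested. The 168 include every count of 0 that stayed at 0. Among these are counts for width, where the test recovered no planted change on simulated data. When peaks were kept from a −log10 q of 5, 27 promoters were open in all 8 libraries (33.3%, all genes 23.7%). Of 67 then open in both EZH2 WT libraries, 20 were closed in EZH2 Y641F (29.9%, all genes 29.4%), 8 in EZH2 A677G (11.9%, 15.6%) and 4 in EZH2 H689A/F667I (5.97%, 10.6%), and the calls in EZH2 Y641F were 1 for fold enrichment and 2 for −log10 p, with 0 for −log10 p in EZH2 A677G. With the canonical start only or a window of 500 bp, 2 were closed in both EZH2 A677G libraries. With 26350 peaks kept per library, 0 were closed in EZH2 A677G and 1 in EZH2 H689A/F667I, and 7 were called for fold enrichment in EZH2 Y641F. With the peak nearest to the canonical start, that count was 1. Without centring, −log10 p gave 35 calls in EZH2 Y641F, 34 of them lower (all promoters 60.6%), and 11 in EZH2 A677G, all lower (14%), and width 3 in EZH2 Y641F, all lower (7.04%). The call for −log10 p in EZH2 A677G became 0 with the canonical start only, the nearest peak, quantile normalization or the replicate block.

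RPL27A changed direction with the canonical start only and with the nearest peak, to −0.16 and −0.16 for fold enrichment and −0.38 and −0.38 for −log10 p in EZH2 Y641F, and to −0.086 and −0.087 for −log10 p in EZH2 A677G. Those alternatives use another peak of the gene. Leaving out each library in turn gave 71 to 73 promoters open in all remaining libraries. It gave 2 to 4 closed in EZH2 Y641F, 1 to 2 in EZH2 A677G and 2 to 4 in EZH2 H689A/F667I. Calls ranged from 0 to 3 for fold enrichment and 0 to 6 for −log10 p in EZH2 Y641F, and from 0 to 1 for −log10 p in EZH2 A677G. Where no promoter was called in either direction, that held under every alternative run except for width in EZH2 Y641F without centring. The counts of 0 lower in EZH2 Y641F did not hold without centring, nor for −log10 p with quantile normalization, with the replicate block, without EZH2 Y641F replicate 2 or without either EZH2 A677G library, each with 1 called lower. Of 16 or 17 alternatives each, RPS3 kept its call in 13 for −log10 p and 11 for fold enrichment, and RPL37A in 13 and 4. Adjusted p over the alternatives (limma) ranged from 0.00812 to 0.115 for RPS3 and from 0.0235 to 0.393 for RPL37A in −log10 p.

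Libraries of the same number did not deviate together: the correlation of their deviations over all promoters was between −0.0219 and 0.0575. With the replicate block, 3 promoters were called for fold enrichment and 6 for −log10 p in EZH2 Y641F, 0 for −log10 p in EZH2 A677G and 0 for width.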
